A study of Mus musculus with 36 samples.

Results

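Liver RNA of the Fc control mice was compared between the standard diet and the high-fat diet (HFD). The libraries were chosen by their labels alone, and they are 19 of the 36 libraries of the series, 1 per mouse. All 19 were male C57BL/6J mice that had been fed the CDAHFD for 12 weeks, a high-fat diet of defined amino acids without added choline that gives the mouse liver steatosis, inflammation and fibrosis. In the first experiment, 10 mice then ate the HFD for 2 weeks and received Fc at 4.3 mg/kg once a week. In the second experiment, 9 mice ate a standard diet for 10 days and received Fc at 4.3 mg/kg on days 1, 4 and 7. Fc is the constant part of a human antibody without the grafted peptide, and it was the control for Fc(mML1)B3, an Fc that carries a peptide which activates the Met receptor. The other 17 libraries are Fc(mML1)B3 mice, 10 of the HFD experiment and 7 of the standard diet experiment. The mice of both experiments were obtained at 7 weeks of age, and the hour at which their livers were taken is not given in the sources used here, and mice kept on the CDAHFD were not analysed here. Diet goes together with the experiment, the length of the second feeding period and the number of doses, so these cannot be told apart in any difference below.

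The CDAHFD withholds choline, which hepatocytes need to make phosphatidylcholine and to export triglyceride in very-low-density lipoprotein. Both the standard diet and the HFD give choline back, and they differ in fat, which the HFD keeps high. In a fatty and inflamed liver, macrophages gather around dying hepatocytes and stellate cells lay down collagen, and both can recede when the diet improves. Cholesterol synthesis, bile acid synthesis and drug metabolism follow diet through transcription factors, and many of the same genes also follow the hour of the day and growth hormone.

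Total counts were 19085473 to 25477135 under the standard diet (median 23088985) and 15111050 to 27600939 under the HFD (median 19023641). Values are given as CPM, read counts scaled to a common library size with TMM factors, with the lowest, the highest and the median mouse of each group. A log2 fold change is positive where the standard diet was higher, and it is given with its standard error (± SE). A gene was called when edgeR's quasi-likelihood test gave a Benjamini-Hochberg adjusted p below 0.05 over all genes tested and the change exceeded 1.5-fold. Each gene's 9 and 10 values come from separate mice.

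HFD mice 7 and 8 stood apart from the other 8 HFD mice. They had 222 and 162 CPM of H19, a fetal non-coding RNA, where the other 8 had 0.712 to 9.06 CPM. They had 130 and 58.5 CPM of Tff3, a trefoil peptide of mucous cells, and the next highest HFD mouse had 16.3 CPM. Cyp2e1, a pericentral ethanol-oxidizing enzyme, was at 2840 and 4030 CPM in these mice against 5800 to 11200 CPM in the other 8. Results that rest on these 2 mice are given with and without them, a choice made after seeing the data. Albumin (Alb) was the most abundant RNA in all 19 libraries, at 84600 to 114000 CPM (median 98600) under the standard diet and 60800 to 112000 CPM (median 81900) under the HFD, as liver tissue should have. Of markers of tissues next to the liver, 2 of 14 pancreatic acinar, 3 of 10 adipocyte, 1 of 9 muscle and 1 of 10 erythroid genes were abundant enough to test, and Adipoq, Ckm and Prss1, which define adipocytes, muscle and acinar cells, had a median of 0 CPM in both groups. The acinar genes summed to 8.69 to 16.1 CPM under the standard diet and 9.72 to 16.4 CPM under the HFD, and the muscle genes to 0.398 to 1.15 and 0.537 to 2.63 CPM. The adipocyte genes summed to 1560 to 3450 CPM under the standard diet and 694 to 2860 CPM under the HFD, nearly all of it Pck1, which hepatocytes also express. The erythroid genes summed to 136 to 170 CPM under the standard diet and 44.1 to 119 CPM under the HFD, without overlap. Nearly all of that sum was Alas2, a heme synthesis enzyme of red cell precursors (log2 fold change 0.75 ± 0.13, adjusted p = 5.57e-05), while the 4 globin genes of the list were at 0 CPM in all 19 libraries. These zeros were not read as absence of red cells, and the part of red cells in the results below was not tested.

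The 2 Fc groups did not overlap on the first principal component, which held 39.1% of the variance of 13506 genes. HFD mice scored from -49.0 to -7.96 and standard diet mice from 14.8 to 37.8. Of the 13506 genes tested, 914 were called higher under the standard diet, 6.77% of those tested, and 1218 were called lower, 9.02%. An adjusted p below 0.05 at any fold was reached by 3222 higher genes (23.9%) and 3398 lower genes (25.2%). When 2-fold changes at an adjusted p below 0.1 were counted, 295 genes were higher (2.18%) and 301 lower (2.23%). The median log2 fold change over all genes was -0.04. Without HFD mice 7 and 8, 890 of 13520 genes were called higher (6.58%) and 979 lower (7.24%). Scaling by library totals alone gave a median of -0.12 over all genes and 682 higher and 1571 lower genes, so the share of lower calls depends on the scaling. Genes were also read as 51 lists by function or cell type. More members were called lower than higher in 32 lists, and more were called higher in 14. Lists of T cell, antigen presentation, duct, female-biased, cholesterol synthesis and elastic fibre genes were among those with the largest shares of lower calls, and male-biased genes had the largest share of higher calls among lists with at least 8 tested members.

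**Figure D1:**
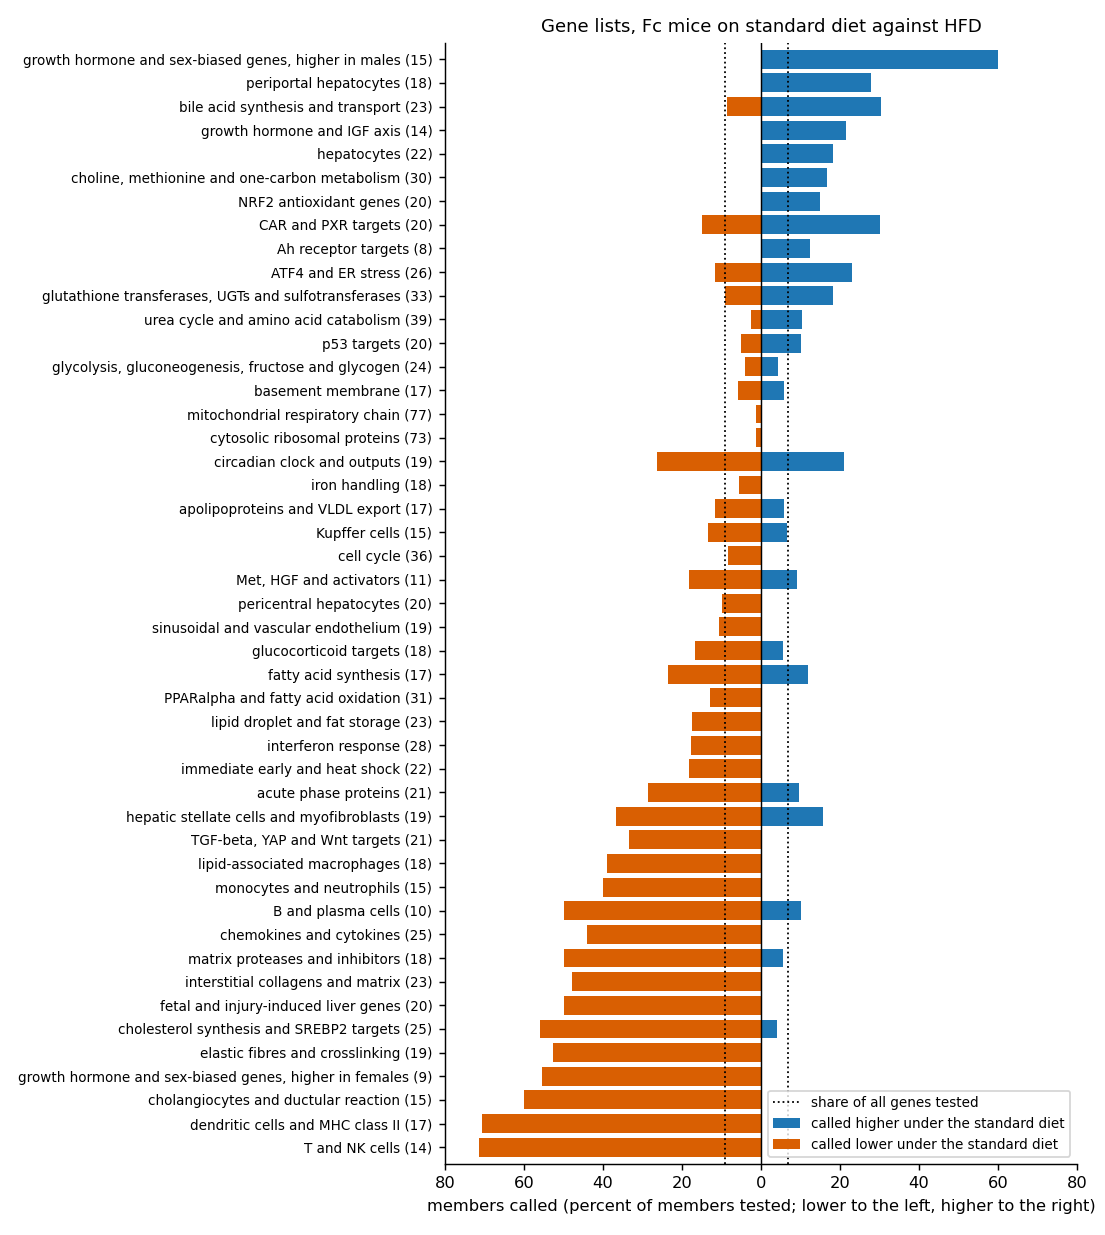
Share of each list's tested members that were called higher (to the right) or lower (to the left) under the standard diet, in percent, for Fc mice; each bar is 1 list with at least 8 tested members, and the dotted lines mark the 6.77% and 9.02% of all tested genes that were called. The male-biased list reaches furthest to the right, and the T and NK cell and MHC class II lists reach furthest to the left.

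Genes of cholesterol synthesis and other targets of SREBP2, the factor that switches on the pathway when sterols are low, were lower under the standard diet. Of 25 members tested, 14 were called lower and 1 higher, and the median log2 fold change was -0.83. Without HFD mice 7 and 8, 16 were called lower and 1 higher, with a median of -1.01. The letters in front of the start of 3 members are shown because these genes moved together and their promoters are known as SREBP2 targets. The sequences are the 250 bases upstream of the RefSeq gene start on GRCm38.p6, read 5′ to 3′ on the gene's strand. Capitals mark the CCAAT box, the letters CCAAT or their reverse complement, and in Hmgcs1 also the sterol element TCACNCCAC.
Hmgcs1, chr13:119690101-119690350, plus strand: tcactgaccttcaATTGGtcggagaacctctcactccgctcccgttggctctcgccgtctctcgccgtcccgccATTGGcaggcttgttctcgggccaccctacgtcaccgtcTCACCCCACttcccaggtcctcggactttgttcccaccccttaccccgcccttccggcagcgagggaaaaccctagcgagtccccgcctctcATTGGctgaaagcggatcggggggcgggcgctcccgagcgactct
Nsdhl, chrX:72918271-72918520, plus strand: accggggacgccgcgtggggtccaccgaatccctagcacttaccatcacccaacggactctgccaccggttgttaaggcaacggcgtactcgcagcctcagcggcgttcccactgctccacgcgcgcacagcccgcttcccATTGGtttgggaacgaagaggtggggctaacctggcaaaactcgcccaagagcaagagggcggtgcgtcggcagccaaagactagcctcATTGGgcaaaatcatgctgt
Msmo1, chr8:64733579-64733828, minus strand: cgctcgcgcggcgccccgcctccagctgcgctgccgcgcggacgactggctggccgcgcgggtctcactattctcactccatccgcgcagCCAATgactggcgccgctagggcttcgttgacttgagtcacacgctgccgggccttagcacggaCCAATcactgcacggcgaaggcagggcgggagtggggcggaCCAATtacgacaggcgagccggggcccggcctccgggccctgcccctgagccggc

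Searched on both strands, a CCAAT box was found in 7 of the 10 cholesterol genes called lower that had such a window, and in 36.2% of the windows of all tested genes. It was also in 6 of 9 genes of dendritic cells and MHC class II called lower with a window. Among clock genes with a window, it was in 2 of 3 called lower and 2 of 4 called higher. The box was thus not particular to the cholesterol genes. The sterol element was in 1 of the 10 cholesterol genes, Hmgcs1, and in 1.04% of all windows. It was also in Hsp90b1, 1 of 5 genes of ATF4 and endoplasmic reticulum stress called higher with a window. A match is only a match of letters, and other spellings of these elements were not searched.

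Fdps, which encodes the synthase of farnesyl diphosphate, had 176 to 292 CPM under the standard diet (median 220) and a median of 666 CPM under the HFD. HFD mouse 7 had 166 CPM and mouse 8 still less, below every standard diet mouse, and the other 8 HFD mice had 435 to 839 CPM, above every standard diet mouse. The difference was called (log2 fold change -1.33 ± 0.26, adjusted p = 0.00022), and it was -1.57 without these 2 mice. Msmo1, which starts the removal of methyl groups from C4 of sterols, had 124 to 211 CPM (median 168) under the standard diet and 110 to 548 CPM (median 435) under the HFD, and Nsdhl, which acts in the same removal, had 51.9 to 89.5 CPM (median 71.2) under the standard diet and 44.2 to 209 CPM (median 181) under the HFD. Both showed the same split, with HFD mice 7 and 8 at or below the level of the standard diet mice (log2 fold change -1.15 ± 0.23, adjusted p = 0.000361 for Msmo1 and log2 fold change -1.12 ± 0.24, adjusted p = 0.000509 for Nsdhl). The mevalonate kinase gene Mvk (log2 fold change -0.98 ± 0.17, adjusted p = 7.39e-05) and the phosphomevalonate kinase gene Pmvk (log2 fold change -1.13 ± 0.22, adjusted p = 0.000271) were also called lower. Hmgcs1, which makes the substrate of the rate-limiting step, was called lower (log2 fold change -0.94 ± 0.31, adjusted p = 0.017). Its call ended when either number series of the standard diet libraries was used alone. It also ended with mouse number as a block and with the first component of the clock genes as a covariate. Stard4, a carrier of cholesterol between membranes, went the other way with 59.1 to 83.7 CPM (median 69) under the standard diet and 12.1 to 69.6 CPM (median 28.1) under the HFD. The groups overlapped through HFD mouse 9 alone (log2 fold change 1.10 ± 0.21, adjusted p = 0.000199). The late enzyme Sc5d (-0.29) and the sterol sensor Insig1 (-0.03, adjusted p = 0.9) were not called.

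**Figure D2:**
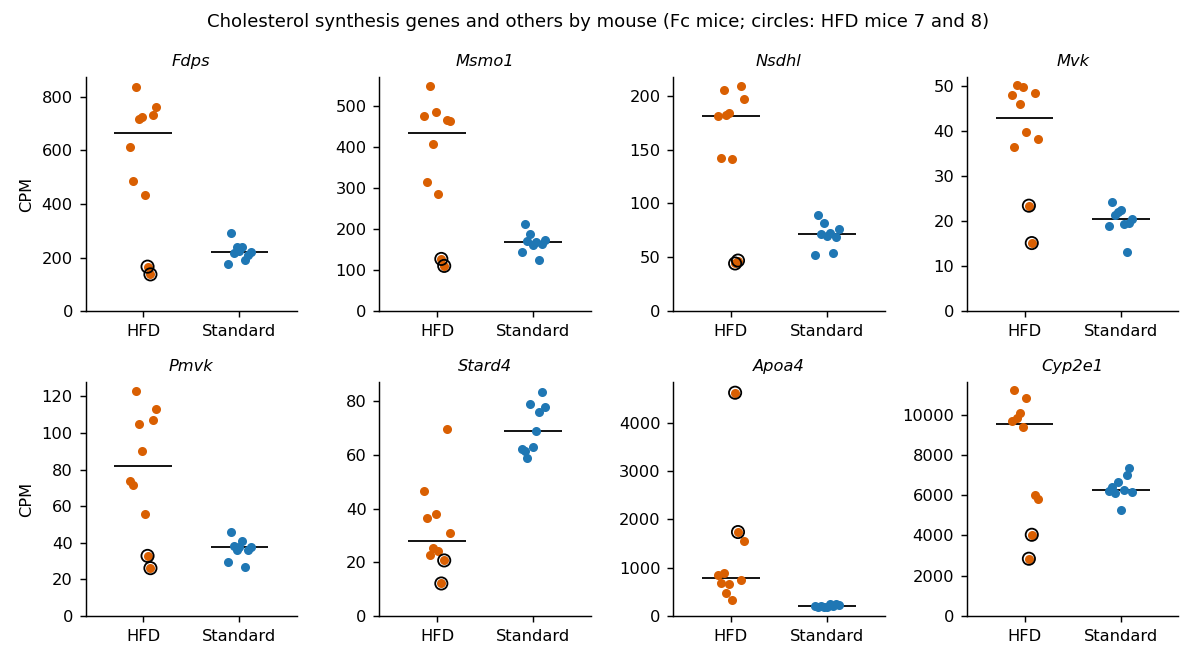
CPM of 8 genes in each Fc mouse under the HFD (orange, 10 mice) and the standard diet (blue, 9 mice), each panel with its own linear axis from 0; bars are group medians and black circles mark HFD mice 7 and 8. The circled mice lie apart from the other 8 HFD mice, low in Fdps, Msmo1, Nsdhl, Mvk, Pmvk and Cyp2e1. In Apoa4, HFD mouse 7 (4630 CPM) is far above the rest, and mouse 8 (1740 CPM) is close to HFD mouse 10 (1560 CPM).

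Fatty acid synthesis genes did not move as a block. Of 17 tested, 2 were called higher and 4 lower, with a median log2 fold change of -0.23, and without HFD mice 7 and 8 the counts were 2 and 5 and the median -0.43. Scd1, the desaturase that makes oleate, had 2150 to 12000 CPM (median 6510) under the HFD and 10800 to 16200 CPM (median 13200) under the standard diet. All but 2 HFD mice were below every standard diet mouse (log2 fold change 1.0 ± 0.26, adjusted p = 0.00307). Mlxipl, the carbohydrate-responsive factor ChREBP, was higher with no overlap between the groups (log2 fold change 0.77 ± 0.11, adjusted p = 7.27e-06). Thrsp (log2 fold change -1.36 ± 0.35, adjusted p = 0.00314), a lipogenic nuclear protein, and Acss2 (log2 fold change -1.12 ± 0.31, adjusted p = 0.00562), which turns acetate into acetyl-CoA, were lower, as was the desaturase Fads1 (log2 fold change -0.59 ± 0.10, adjusted p = 4.28e-05). Fads1 lay at the fold limit, and its call ended in 7 of the 19 fits that left out 1 mouse (-0.63 to -0.52 over all 19). Fasn, fatty acid synthase, had 593 to 966 CPM (median 748) under the standard diet and 187 to 1570 CPM (median 696) under the HFD. The standard diet values lay inside the HFD range (log2 fold change 0.00 ± 0.33, adjusted p = 0.995). Elovl5, an elongase, was not called either (0.18).

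Targets of PPARα, the receptor that switches on fatty acid oxidation, were mostly not called. Of 31 tested, 0 were called higher and 4 lower, and the median was -0.12. The 4 were the thioesterase Acot2 (log2 fold change -1.13 ± 0.18, adjusted p = 2.98e-05), the hormone Fgf21 (log2 fold change -1.10 ± 0.27, adjusted p = 0.00228) and the fatty acid hydroxylases Cyp4a10 (log2 fold change -0.84 ± 0.28, adjusted p = 0.0174) and Cyp4a14 (log2 fold change -0.85 ± 0.33, adjusted p = 0.0387). The abundant member Fabp1, a fatty acid binding protein, was not called (0.28). The call of Cyp4a14 ended in 8 of the 19 fits that left out 1 mouse (-1.0 to -0.58 over all 19). Among other alternatives, it was also lost with DESeq2 and in a fit that takes gene length into account (log2 fold change -0.79).

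Among 23 lipid droplet genes, 0 were called higher and 4 lower. Mogat2, which makes diacylglycerol, had 0.0991 to 0.996 CPM (median 0.398) under the standard diet and 0.876 to 3.44 CPM (median 1.49) under the HFD. The groups overlapped in the standard diet mouse with 0.996 CPM (log2 fold change -2.07 ± 0.32, adjusted p = 1.69e-05), and at this level a value rests on few reads. G0s2 (log2 fold change -0.97 ± 0.22, adjusted p = 0.00104), an inhibitor of triglyceride breakdown, Hilpda (log2 fold change -0.70 ± 0.13, adjusted p = 0.000184), another, and Fabp4 (log2 fold change -0.83 ± 0.22, adjusted p = 0.00409), a fatty acid carrier of macrophages and fat cells, were lower. Without HFD mice 7 and 8 Fabp4 was no longer called (-0.46). Plin2, the main coat protein of hepatocyte droplets, had 410 to 526 CPM (median 444) under the standard diet and 394 to 566 CPM (median 460) under the HFD. The groups lay on top of each other (log2 fold change -0.04 ± 0.07, adjusted p = 0.685).

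Of 17 apolipoprotein and lipoprotein export genes, 1 was called higher and 2 lower. Apoa4, an apolipoprotein that follows fat load in mouse liver, had 177 to 249 CPM (median 207) under the standard diet and 339 to 4630 CPM (median 797) under the HFD. Every HFD mouse was above every standard diet mouse, and HFD mice 7 and 8 were the 2 highest (log2 fold change -2.58 ± 0.37, adjusted p = 7.94e-06). Without them the log2 fold change was -1.89. Apob, the structural protein of very-low-density lipoprotein, was higher with no overlap (log2 fold change 0.63 ± 0.08, adjusted p = 1.24e-06). Its call ended in the fit that takes gene length into account, where the value was 0.23, and Apob has a long mRNA. Pltp, which transfers phospholipid between lipoproteins, was lower (log2 fold change -0.74 ± 0.08, adjusted p = 2.82e-07), with 27.4% of its exonic bases shared with Ctsa. Apoe was not called (0.02).

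The bile acid and conjugate exporters Abcc2, Abcb11 and Abcc3 were higher under the standard diet. Of 23 genes of bile acid synthesis and transport, 7 were called higher and 2 lower, with a median log2 fold change of 0.30, and without HFD mice 7 and 8 these counts were 6 and 2. Abcc2, which exports conjugates into bile, had 381 to 566 CPM (median 476) under the standard diet and 145 to 277 CPM (median 194) under the HFD. No HFD mouse reached the lowest standard diet mouse (log2 fold change 1.25 ± 0.10, adjusted p = 3.05e-09). Abcb11, the bile salt export pump, had 530 to 790 CPM (median 639) under the standard diet and 201 to 362 CPM (median 277) under the HFD, again without overlap (log2 fold change 1.24 ± 0.11, adjusted p = 9.63e-09). Abcc3, which exports bile acids to blood, was higher as well (log2 fold change 0.77 ± 0.13, adjusted p = 6.34e-05). Acox2, which shortens the side chain of bile acids, was higher (log2 fold change 0.85 ± 0.07, adjusted p = 1.03e-08), and so was Cyp7b1 of the alternative pathway (log2 fold change 1.02 ± 0.19, adjusted p = 0.000204). Cyp7a1, the rate-limiting enzyme of the classical pathway, had 62.8 to 128 CPM (median 81.9) under the standard diet and 103 to 411 CPM (median 173) under the HFD. Its groups overlapped in part, with the lower values under the standard diet (log2 fold change -1.10 ± 0.22, adjusted p = 0.00036). Akr1d1, a reductase of the same pathway, was lower (log2 fold change -0.59 ± 0.12, adjusted p = 0.00027), at the fold limit, and its call ended in 10 of the 19 fits that left out 1 mouse. Slc10a1, the uptake transporter of bile salts, was not called (-0.27, adjusted p = 0.0955).

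Targets of the xenobiotic receptors CAR and PXR were split. Of 20 tested, 6 were called higher and 3 lower. Cyp3a11, the main PXR target of mouse liver, had 3920 to 6830 CPM (median 4640) under the standard diet and 784 to 1900 CPM (median 1460) under the HFD. The lowest standard diet mouse had more than the highest HFD mouse (log2 fold change 1.78 ± 0.14, adjusted p = 4.11e-09). Ces2a, a carboxylesterase, was higher without overlap (log2 fold change 1.57 ± 0.14, adjusted p = 2.1e-08), and so were Cyp3a25 (log2 fold change 1.15 ± 0.13, adjusted p = 4.47e-07), Cyp2c29 (log2 fold change 1.63 ± 0.23, adjusted p = 7.09e-06) and Cyp2c55 (1.83). Por, the reductase that passes electrons to these cytochromes, was lower (log2 fold change -1.02 ± 0.13, adjusted p = 2.63e-06), with 177 to 330 CPM (median 268) under the standard diet and 325 to 673 CPM (median 545) under the HFD. Cyp2b9, a female-biased CAR target, was lower too (log2 fold change -1.69 ± 0.48, adjusted p = 0.0057), with wide spread in both groups. Reads of Cyp2b, Cyp2c and Cyp3a genes can fall on near-identical copies, so the single members of these families are uncertain.

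Of 33 glutathione transferases, UDP-glucuronosyltransferases and sulfotransferases, 6 were called higher and 3 lower, with a median of 0.19. Ugt2b1 was higher (log2 fold change 1.19 ± 0.12, adjusted p = 5.54e-08), as was Gstm4 (log2 fold change 0.73 ± 0.09, adjusted p = 1.67e-06), and both conjugate drugs and steroids or electrophiles. Gstt2 (log2 fold change -0.81 ± 0.10, adjusted p = 1.37e-06) and Sult1a1 (log2 fold change -0.66 ± 0.09, adjusted p = 3.64e-06), a phenol sulfotransferase, were lower. None of these 4 overlapped between the groups, and these families too have near-identical members. Of 20 antioxidant genes under NRF2, 3 were called higher and 0 lower. Gclc, which makes the first step of glutathione synthesis, had 284 to 436 CPM (median 336) under the standard diet and 114 to 200 CPM (median 170) under the HFD, with no overlap (log2 fold change 1.04 ± 0.10, adjusted p = 6.84e-08). Of 8 Ah receptor targets, 1 was called higher and 0 lower, and 0 and 0 without HFD mice 7 and 8.

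Most tested genes that growth hormone pulses keep higher in male than in female liver were higher under the standard diet in the Fc mice. Of 15 male-biased genes tested, 9 were called higher and 0 lower, with a median log2 fold change of 1.02. Of 9 female-biased genes, 0 were called higher and 5 lower, with a median of -1.26. All 19 mice were male. Without HFD mice 7 and 8 the counts were 9 and 0 for the male-biased genes and 0 and 4 for the female-biased genes, with medians of 0.85 and -0.57.

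Elovl3, an elongase of very long fatty acids that is both male-biased and rhythmic, had 45.7 to 94.9 CPM (median 80.2) under the standard diet and 0.255 to 38.6 CPM (median 11.4) under the HFD. No HFD mouse reached the standard diet range, and HFD mouse 7 was lowest (log2 fold change 2.55 ± 0.40, adjusted p = 2.53e-05). Hsd3b5, a male-specific steroid reductase, had 22.3 to 95.9 CPM (median 50.2) under the standard diet and 0 to 39.1 CPM (median 6.57) under the HFD. HFD mouse 1 was the only HFD mouse above the lowest standard diet mouse, and HFD mouse 7 had none (log2 fold change 2.48 ± 0.53, adjusted p = 0.000613). Selenbp2, a selenium-binding protein, was higher too (log2 fold change 1.23 ± 0.25, adjusted p = 0.000308). Mup20, a major urinary protein, was not called (log2 fold change -0.17 ± 0.18, adjusted p = 0.463). On the female-biased side, Acot3, a thioesterase, had 1.62 to 10.7 CPM (median 4.06) under the standard diet and 15.7 to 67.5 CPM (median 32.3) under the HFD, without overlap (log2 fold change -2.99 ± 0.31, adjusted p = 1.31e-07). Cyp17a1, a steroid hydroxylase, was lower (log2 fold change -2.16 ± 0.54, adjusted p = 0.00246). HFD mouse 7 had 119 CPM and the other HFD mice at most 30.1 CPM, and without mice 7 and 8 the log2 fold change was -1.03. Cyp2a22 was lower (log2 fold change -1.26 ± 0.22, adjusted p = 9.6e-05). Cyp2a4, a steroid hydroxylase with a near-identical neighbour, rested on the same pair, with 260 and 101 CPM in HFD mice 7 and 8 and at most 25.7 CPM in the others. It was not called (log2 fold change -1.27 ± 0.57, adjusted p = 0.0712), and its sign turned to 0.32 without them.

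Of 14 genes of the growth hormone and IGF axis, 3 were called higher and 0 lower. Stat5b, which carries the growth hormone signal, was higher (log2 fold change 0.59 ± 0.07, adjusted p = 6.96e-07), at the edge of the fold limit, so that its call ended without HFD mice 7 and 8 (0.58). Egfr, the epidermal growth factor receptor, had 325 to 735 CPM (median 484) under the standard diet and 125 to 338 CPM (median 243) under the HFD. HFD mice 2 and 5 just reached the standard diet range (log2 fold change 1.02 ± 0.16, adjusted p = 2.35e-05). Onecut1, the factor HNF6, had 1.69 to 18.2 CPM (median 10.4) under the standard diet and 0.449 to 3.44 CPM (median 1.65) under the HFD, with a wide spread under the standard diet (log2 fold change 2.34 ± 0.39, adjusted p = 3.82e-05). Igf1 was not called (0.22).

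Of 30 choline and one-carbon genes, 5 were called higher and 0 lower, and the median of the list was 0.00. Without HFD mice 7 and 8 these counts were 5 and 2, and at an adjusted p below 0.05 with no limit on the fold they were 7 and 8. Slc44a1, a choline transporter, had 23.3 to 31.8 CPM (median 29.6) under the standard diet and 8.61 to 19.4 CPM (median 13) under the HFD. The groups were apart (log2 fold change 1.11 ± 0.11, adjusted p = 5.76e-08). Cbs, which commits homocysteine to cysteine, had 463 to 638 CPM (median 560) under the standard diet and 239 to 378 CPM (median 320) under the HFD, also apart (log2 fold change 0.80 ± 0.08, adjusted p = 6.85e-08). Chdh, which oxidizes choline (log2 fold change 0.73 ± 0.08, adjusted p = 3.13e-07), Mtr, methionine synthase (log2 fold change 1.05 ± 0.13, adjusted p = 8.59e-07), and Chka, the kinase that starts phosphatidylcholine synthesis (log2 fold change 0.59 ± 0.12, adjusted p = 0.000371), were higher. Chka lay at the fold limit and lost its call in 5 of the 19 fits without 1 mouse. Bhmt, which spends betaine on methionine, was not called (log2 fold change -0.52 ± 0.16, adjusted p = 0.0106), and was called lower without HFD mice 7 and 8 (-0.61).

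Of 39 genes of the urea cycle and amino acid breakdown, 4 were called higher and 1 lower. Cps1, the entry enzyme of the urea cycle, had 3760 to 4750 CPM (median 4210) under the standard diet and 1620 to 3290 CPM (median 2570) under the HFD. The ranges did not meet (log2 fold change 0.78 ± 0.11, adjusted p = 5.38e-06). Hal, histidine ammonia-lyase (log2 fold change 1.01 ± 0.17, adjusted p = 3.68e-05), and Csad, which leads cysteine to taurine (log2 fold change 1.21 ± 0.24, adjusted p = 0.000318), were higher, and Prodh, proline dehydrogenase, was lower (log2 fold change -0.66 ± 0.14, adjusted p = 0.000504). Of 24 glycolytic, gluconeogenic and glycogen genes, 1 was called higher and 1 lower, and without HFD mice 7 and 8 these counts were 2 and 4. Ppp1r3c, which targets a phosphatase to glycogen, had 32.7 to 79.3 CPM (median 47.3) under the standard diet and 12.4 to 42.3 CPM (median 17.2) under the HFD. HFD mouse 1 was the only HFD mouse inside the standard diet range (log2 fold change 1.27 ± 0.19, adjusted p = 1.1e-05). Pck1, the gluconeogenic carboxykinase, was not called (log2 fold change 0.58 ± 0.21, adjusted p = 0.0276), and was called higher without HFD mice 7 and 8 (0.79).

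Some chaperones of the endoplasmic reticulum (ER) were called higher under the standard diet. Of 26 genes of ATF4 and ER stress, 6 were called higher and 3 lower, with a median of 0.30. The 6 higher genes act in folding or degradation in the ER. Calr, with 986 to 1290 CPM under the standard diet and 841 to 1170 CPM under the HFD, was not called. Pdia6, with 294 to 371 and 214 to 308 CPM, was not called either. Hspa5, the chaperone BiP, had 719 to 1230 CPM (median 956) under the standard diet and 353 to 754 CPM (median 507) under the HFD. HFD mouse 7, at 754 CPM, was the only HFD mouse inside the standard diet range (log2 fold change 0.91 ± 0.13, adjusted p = 8.72e-06). Hsp90b1, the chaperone GRP94, had 935 to 1180 CPM (median 1080) under the standard diet and 526 to 853 CPM (median 691) under the HFD, and Pdia4, a disulfide isomerase, had 259 to 375 CPM (median 317) under the standard diet and 176 to 235 CPM (median 198) under the HFD. Neither overlapped between the groups (log2 fold change 0.66 ± 0.08, adjusted p = 4.49e-07 and log2 fold change 0.68 ± 0.07, adjusted p = 1.53e-07). Creld2 (log2 fold change 1.05 ± 0.17, adjusted p = 2.36e-05) and Manf (log2 fold change 0.75 ± 0.14, adjusted p = 0.000107), small secreted proteins of the ER stress response, were higher, with HFD mice 7 and 8 the highest of the HFD mice for Creld2. The lower genes included Atf3, a stress-induced factor (log2 fold change -0.79 ± 0.20, adjusted p = 0.00282), and Psat1 of serine synthesis (log2 fold change -1.01 ± 0.23, adjusted p = 0.00096). The call of Atf3 ended without HFD mice 7 and 8 (-0.54).

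The promoters of 3 of the higher genes are shown because they hold the ER stress element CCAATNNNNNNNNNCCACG, here in capitals on either strand, in the 250 bases before the RefSeq gene start on GRCm38.p6.
Hspa5, chr2:34771840-34772089, plus strand: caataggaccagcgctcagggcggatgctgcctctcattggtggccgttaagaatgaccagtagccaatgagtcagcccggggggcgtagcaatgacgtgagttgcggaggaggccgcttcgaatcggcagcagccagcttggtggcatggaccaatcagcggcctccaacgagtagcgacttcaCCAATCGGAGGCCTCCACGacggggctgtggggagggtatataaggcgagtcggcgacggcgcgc
Hsp90b1, chr10:86705445-86705694, minus strand: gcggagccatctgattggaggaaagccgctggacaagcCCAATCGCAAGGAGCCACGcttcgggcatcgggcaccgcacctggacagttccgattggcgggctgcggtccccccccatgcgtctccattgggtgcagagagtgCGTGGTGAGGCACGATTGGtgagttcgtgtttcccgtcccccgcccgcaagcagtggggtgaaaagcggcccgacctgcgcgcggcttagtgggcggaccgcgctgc
Creld2, chr15:88819396-88819645, plus strand: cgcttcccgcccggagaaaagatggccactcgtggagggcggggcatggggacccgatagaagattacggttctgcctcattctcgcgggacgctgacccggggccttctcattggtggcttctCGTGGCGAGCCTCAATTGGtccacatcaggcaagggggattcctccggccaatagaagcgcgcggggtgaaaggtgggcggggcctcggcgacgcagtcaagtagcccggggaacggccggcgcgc

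This element was in 3 of the 5 higher genes of the list with a window and in 17 of 10288 windows of all tested genes, 0.165%. It contains a CCAAT box, which all 5 had, against 36.2% of all windows.

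Most genes of interstitial matrix had lower values under the standard diet, with a negative log2 fold change in 20 of 23. Of 23 tested, 0 were called higher and 11 lower (median log2 fold change -0.56), and 10 were called lower without HFD mice 7 and 8. In bulk liver RNA, fewer cells of a type and less RNA per cell cannot be told apart, here and for every cell type list below. Col1a1, the major chain of fibrillar collagen I, had 39.8 to 82.3 CPM (median 48.5) under the standard diet and 58.2 to 182 CPM (median 120) under the HFD. The highest standard diet mouse lay within the lower part of the HFD range (log2 fold change -1.18 ± 0.20, adjusted p = 5.56e-05). Col1a2 (log2 fold change -1.0 ± 0.16, adjusted p = 2.38e-05), Col6a1 (log2 fold change -1.05 ± 0.18, adjusted p = 5.4e-05) and the proteoglycans Bgn (log2 fold change -0.90 ± 0.11, adjusted p = 1.62e-06) and Dcn (log2 fold change -0.60 ± 0.10, adjusted p = 5.94e-05) were lower, with Dcn at the fold limit and not called in 7 of the 19 fits without 1 mouse. Col3a1, the chain of collagen III, had 130 to 214 CPM (median 153) under the standard diet and 108 to 266 CPM (median 198) under the HFD. The groups overlapped widely (log2 fold change -0.30 ± 0.15, adjusted p = 0.106). Fn1, fibronectin, which hepatocytes also make, was not called (0.42).

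Genes of elastic fibres and crosslinking had the lowest median of the matrix lists, -0.82. Of 19 tested, 0 were called higher and 10 lower. Fbln5, which organizes elastic fibres, had 7.27 to 17.8 CPM (median 12.4) under the standard diet and 15.5 to 32.5 CPM (median 26.3) under the HFD. The 2 ranges met only at their edges (log2 fold change -1.09 ± 0.15, adjusted p = 4.13e-06). Emilin1 (log2 fold change -0.88 ± 0.12, adjusted p = 3.02e-06), a glycoprotein of the same fibres, and Efemp2 (log2 fold change -0.95 ± 0.13, adjusted p = 6.25e-06), which binds lysyl oxidase, were lower. Of the 19 genes, 3 had a positive log2 fold change, among them Eln, elastin itself (log2 fold change 0.32 ± 0.28, adjusted p = 0.355), and Lox, lysyl oxidase (log2 fold change 0.49 ± 0.20, adjusted p = 0.0499), both not called and named after their values were seen. Of 17 basement membrane genes, 1 was called higher and 1 lower, and 1 and 0 without HFD mice 7 and 8.

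Of 18 matrix proteases and inhibitors, 1 was called higher and 9 lower, with a median of -0.60, and without HFD mice 7 and 8 these counts were 1 and 6. Both sides of the balance were among the lower genes, with the proteases Mmp2 (log2 fold change -1.01 ± 0.24, adjusted p = 0.00131) and Mmp23 (log2 fold change -1.18 ± 0.18, adjusted p = 1.36e-05) and the inhibitors Timp2 (log2 fold change -0.78 ± 0.17, adjusted p = 0.000583) and Timp3 (log2 fold change -0.97 ± 0.15, adjusted p = 1.94e-05). Mmp19 was the higher one (log2 fold change 0.67 ± 0.09, adjusted p = 4.91e-06), with 22.8% of its exonic bases shared with Tmem198b. Mmp12, the elastase of macrophages, had 85.1 to 161 CPM (median 144) under the standard diet and 108 to 304 CPM under the HFD. The medians nearly coincided (log2 fold change -0.28 ± 0.18, adjusted p = 0.197).

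Markers of stellate cells and myofibroblasts went both ways, 3 higher and 7 lower of 19, with or without HFD mice 7 and 8. Acta2, the smooth muscle actin of activated stellate cells, had 1.84 to 3.66 CPM (median 2.98) under the standard diet and 4.25 to 10.9 CPM (median 7.67) under the HFD. Every HFD mouse was above every standard diet mouse (log2 fold change -1.37 ± 0.19, adjusted p = 6.07e-06), and HFD mice 7 and 8 were among the lower HFD mice. Hand2, a stellate cell factor (log2 fold change -0.81 ± 0.16, adjusted p = 0.00026), and Vim, vimentin (log2 fold change -0.80 ± 0.16, adjusted p = 0.000286), were lower. Hgf, the ligand of Met and a product of stellate cells, was higher (log2 fold change 0.85 ± 0.16, adjusted p = 0.000139), as were Rgs5, a pericyte regulator (log2 fold change 0.77 ± 0.18, adjusted p = 0.00135), and Spon2, a secreted matrix protein (log2 fold change 0.70 ± 0.13, adjusted p = 0.000137). These 3 were not called with the first component of the clock genes as a covariate (0.72, 0.76 and 0.43). Of 11 genes of Met, HGF and its activators, 1 was called higher and 2 lower. Tgfb1, the main fibrogenic cytokine, had 14.5 to 20.2 CPM (median 18.8) under the standard diet and 24.4 to 48.5 CPM (median 28.9) under the HFD. The groups were apart, with HFD mice 7 and 8 highest (log2 fold change -0.80 ± 0.11, adjusted p = 4.05e-06). Of 21 targets of TGF-beta, YAP and Wnt, 0 were called higher and 7 lower, among them Tgfbi, a matrix adapter (log2 fold change -0.98 ± 0.09, adjusted p = 2.57e-08).

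**Figure D3:**
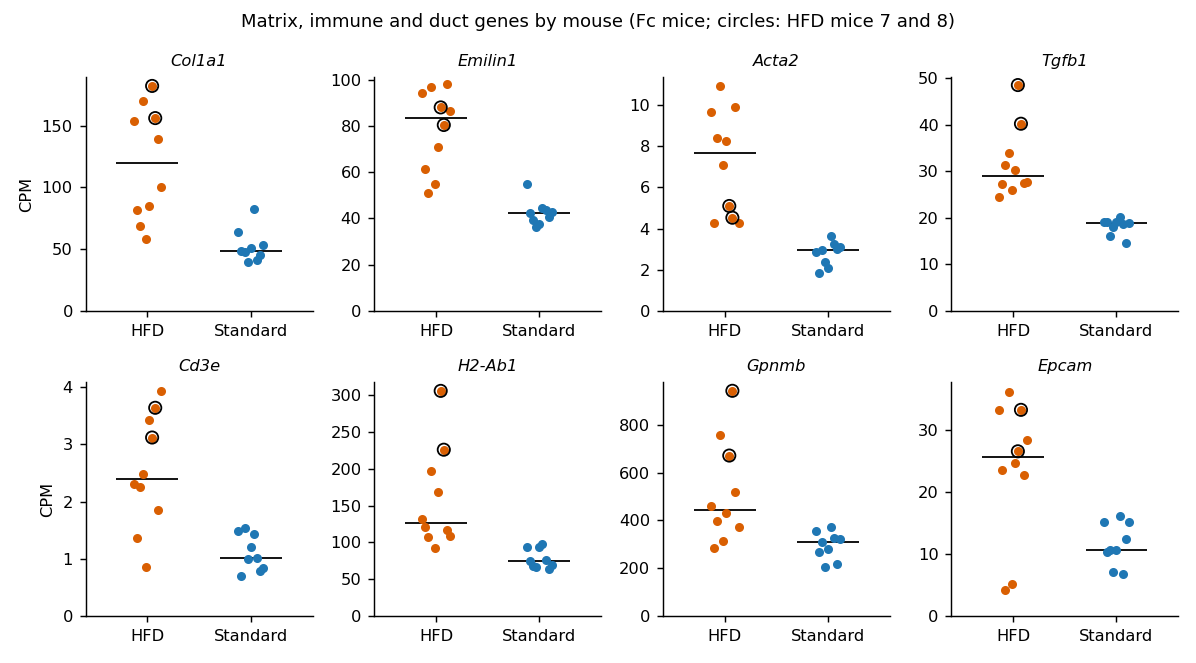
CPM of 8 matrix, immune and duct genes in each Fc mouse under the HFD (orange, 10 mice) and the standard diet (blue, 9 mice), each panel with its own linear axis from 0; bars are group medians and black circles mark HFD mice 7 and 8. Acta2 and Tgfb1 do not overlap between the diets, and the circled mice are the highest in Tgfb1 and H2-Ab1.

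Of 15 Kupffer cell genes, 1 was called higher and 2 lower, and without HFD mice 7 and 8 these counts were 1 and 0. Cd68, a lysosomal protein of macrophages, was lower (log2 fold change -0.75 ± 0.16, adjusted p = 0.000448), as was the complement gene C1qa (log2 fold change -0.61 ± 0.14, adjusted p = 0.00161), and both calls ended without these 2 mice. Cd163, a scavenger receptor of resident macrophages, had 0.5 to 5.4 CPM (median 0.797) under the standard diet and 0 to 1.12 CPM (median 0.321) under the HFD. A single standard diet mouse held the top value, and most values rest on few reads (log2 fold change 1.66 ± 0.53, adjusted p = 0.0123). The call ended when that mouse, standard diet mouse 4, was left out (1.05). Adgre1, the pan-macrophage antigen F4/80, had 25.2 to 43.1 CPM (median 35.6) under the standard diet and 30.1 to 58.9 CPM (median 39.3) under the HFD. The ranges overlapped for most mice (log2 fold change -0.22 ± 0.13, adjusted p = 0.163).

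Of 18 genes of lipid-associated macrophages, the cells that gather around steatotic hepatocytes, 0 were called higher and 7 lower, with a median of -0.48. Without HFD mice 7 and 8 these counts were 1 and 3, and the median was -0.31. Trem2, a lipid-sensing receptor of these cells, had 14.8 to 30 CPM (median 24.5) under the standard diet and 25.6 to 66 CPM (median 36.5) under the HFD. The ranges overlapped (log2 fold change -0.75 ± 0.18, adjusted p = 0.00146), and the value without the 2 mice was -0.63. Gpnmb, a glycoprotein of the same cells, was lower (log2 fold change -0.80 ± 0.19, adjusted p = 0.00162), but not called without the 2 mice (-0.58). Ms4a7 was lower (log2 fold change -1.15 ± 0.21, adjusted p = 9.76e-05), with -0.95 without them. Of 15 monocyte and neutrophil genes, 0 were called higher and 6 lower (median -0.71), and 4 were called lower without the 2 mice (-0.29). Lcn2, an iron-binding protein of neutrophils and of inflamed hepatocytes, had 16.7 to 277 CPM (median 37.7) under the standard diet and 94.6 to 848 CPM (median 178) under the HFD. Standard diet mouse 5 had 277 CPM, inside the HFD range, and the other 8 had at most 59.2 CPM (log2 fold change -2.04 ± 0.49, adjusted p = 0.00175). Plac8 was lower (log2 fold change -0.71 ± 0.16, adjusted p = 0.00111), not called without HFD mice 7 and 8 (-0.54).

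T and NK cell genes showed the largest shift of the immune lists. Of 14 tested, 0 were called higher and 10 lower, with a median log2 fold change of -1.08, and 10 were called lower without HFD mice 7 and 8 (-0.89). Their summed level was 12.2 to 19.4 CPM under the standard diet and 14.6 to 45.9 CPM under the HFD. Cd3e, a chain of the T cell receptor complex, had 0.704 to 1.54 CPM (median 1.02) under the standard diet and 0.85 to 3.93 CPM (median 2.39) under the HFD. At these levels the groups overlapped (log2 fold change -1.16 ± 0.25, adjusted p = 0.000566). Cd3g (log2 fold change -1.43 ± 0.30, adjusted p = 0.000485), another chain of the complex, and Lck, the kinase of its signal (log2 fold change -1.02 ± 0.24, adjusted p = 0.00128), were lower. Of 10 B and plasma cell genes, 1 was called higher and 5 lower. Jchain, which joins secreted antibodies (log2 fold change -1.45 ± 0.31, adjusted p = 0.000583), and Mzb1, a chaperone of plasma cells (log2 fold change -1.72 ± 0.36, adjusted p = 0.000434), were lower. Derl3, which degrades ER proteins and is not confined to plasma cells, was the higher one (log2 fold change 0.88 ± 0.22, adjusted p = 0.0021).

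Of 17 genes of dendritic cells and MHC class II, 0 were called higher and 12 lower (median -0.74), and 6 were called lower without HFD mice 7 and 8 (-0.56). H2-Ab1, a chain of the peptide-presenting molecule, had 64.2 to 98 CPM (median 74.1) under the standard diet and 92 to 306 CPM (median 126) under the HFD. HFD mice 7 and 8, with 306 and 226 CPM, were highest, and HFD mouse 5 lay in the standard diet range (log2 fold change -1.01 ± 0.19, adjusted p = 0.000145). Cd74, the invariant chain (log2 fold change -0.96 ± 0.18, adjusted p = 0.000201), and H2-DMa, which loads peptide (log2 fold change -1.02 ± 0.16, adjusted p = 3e-05), were lower. Ciita, the master activator of these genes, was not called (log2 fold change -0.19 ± 0.20, adjusted p = 0.434).

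Of 25 chemokines and cytokines, 0 were called higher and 11 lower, with a median of -0.56. The lower calls numbered 8 without HFD mice 7 and 8. Ccl5 (log2 fold change -1.08 ± 0.21, adjusted p = 0.000277) and Cxcl10 (log2 fold change -0.88 ± 0.16, adjusted p = 0.000155), which draw T cells, and Ccl22 (log2 fold change -0.97 ± 0.18, adjusted p = 0.000144), a dendritic cell chemokine, were lower. Ccl2, which draws monocytes, had 1.32 to 3.85 CPM (median 1.87) under the standard diet and 2.11 to 5.39 CPM (median 3.36) under the HFD. Its overlap was wide, and the call ended without HFD mice 7 and 8 (log2 fold change -0.68 ± 0.22, adjusted p = 0.0127, and -0.54 without). Cxcl1, which draws neutrophils, had 4.31 to 27.2 CPM (median 9.88) under the standard diet and 8.24 to 22.2 CPM (median 10.1) under the HFD and was not called (-0.16, adjusted p = 0.661). Of 28 interferon response genes, 0 were called higher and 5 lower, and 1 lower without the 2 mice. Psmb9, a subunit of the immunoproteasome, was lower without overlap (log2 fold change -1.01 ± 0.12, adjusted p = 6.28e-07), and Ifit3 was lower (log2 fold change -0.69 ± 0.14, adjusted p = 0.000305), not called without the 2 mice (-0.56).

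Of 21 acute phase proteins, 2 were called higher and 6 lower, and 2 and 4 without HFD mice 7 and 8. Saa2, a serum amyloid A that hepatocytes release in inflammation, had 46.9 to 358 CPM (median 94.7) under the standard diet and 393 to 3070 CPM (median 1180) under the HFD. No standard diet mouse reached the HFD range, and standard diet mouse 5 came closest (log2 fold change -3.33 ± 0.42, adjusted p = 1.45e-06). Its neighbour Saa1 had 65.9 to 563 CPM (median 136) under the standard diet and 458 to 2790 CPM (median 1320) under the HFD, with overlap through the same standard diet mouse alone (log2 fold change -2.93 ± 0.39, adjusted p = 2.79e-06). Reads of Saa1 and Saa2 may be shared, since their sequences are close. Fga, a fibrinogen chain (log2 fold change 0.66 ± 0.14, adjusted p = 0.000751), and Lbp, which binds bacterial lipopolysaccharide (log2 fold change 0.70 ± 0.17, adjusted p = 0.00224), were higher, and both calls ended when standard diet mouse 5 was left out, with 0.56 for Fga and 0.54 for Lbp.

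Duct markers all had a negative log2 fold change, but not all were called. Of 15 genes of cholangiocytes and the ductular reaction, 0 were called higher and 9 lower (median log2 fold change -0.71). The lower calls numbered 5 without HFD mice 7 and 8 and 4 in the fit that takes gene length into account. Epcam, an adhesion protein of duct and progenitor cells, had 6.8 to 16.2 CPM (median 10.7) under the standard diet and 4.16 to 36.2 CPM (median 25.6) under the HFD. HFD mice 3 and 5 had 4.16 and 5.17 CPM, below all standard diet mice, and the other 8 HFD mice had 22.7 CPM or more, above all of them (log2 fold change -1.03 ± 0.30, adjusted p = 0.00774). Cldn7, a tight junction protein of ducts, had its lowest HFD values in the same 2 mice, where mouse 5 lay inside the standard diet range (log2 fold change -1.28 ± 0.31, adjusted p = 0.00167). Krt19, a duct keratin (log2 fold change -0.53 ± 0.27, adjusted p = 0.102), and Sox9, a duct and progenitor factor (log2 fold change -0.23 ± 0.15, adjusted p = 0.221), were not called. Of 20 fetal and injury-induced genes, 0 were called higher and 10 lower, and 6 lower without HFD mice 7 and 8. H19 (log2 fold change -5.17 ± 1.21, adjusted p = 0.00137) and Tff3 (log2 fold change -3.00 ± 0.84, adjusted p = 0.00528) were called only with these 2 mice, and without them the values were -1.17 and -0.58. S100a11, a calcium-binding protein of injured liver, was lower with no overlap (log2 fold change -1.14 ± 0.14, adjusted p = 1.14e-06) and -0.99 without the 2 mice.

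Of 22 hepatocyte genes, 4 were called higher and 0 lower. Hnf4a, the central hepatocyte factor, had 562 to 793 CPM (median 638) under the standard diet and 340 to 500 CPM (median 427) under the HFD, with no overlap (log2 fold change 0.61 ± 0.08, adjusted p = 2.23e-06), though its fold fell under the limit without HFD mouse 4 or standard diet mouse 5 (0.58 each). Prox1, another hepatocyte factor, was among the genes of smallest p (log2 fold change 1.64 ± 0.11, adjusted p = 2.02e-10). Of 18 periportal genes, 5 were called higher and 0 lower, and 7 and 0 without HFD mice 7 and 8. Cyp2f2, the periportal cytochrome, had 1140 to 1580 CPM (median 1350) under the standard diet and 327 to 992 CPM (median 707) under the HFD, with no overlap (log2 fold change 0.95 ± 0.15, adjusted p = 2.76e-05). Of 20 pericentral genes, 0 were called higher and 2 lower. Lect2, a pericentral secreted protein, was lower (log2 fold change -0.87 ± 0.13, adjusted p = 2.02e-05). Glul, glutamine synthetase of the innermost pericentral layer, had 1110 to 1630 CPM (median 1280) under the standard diet and 471 to 3100 CPM (median 2170) under the HFD. HFD mice 7 and 8 were below all standard diet mice with 471 and 794 CPM, and the other 8 HFD mice were above all of them. Glul was not called with them (log2 fold change -0.58 ± 0.23, adjusted p = 0.0429) and was called lower without them (-0.80). Cyp2e1 was not called in either fit (-0.32 and -0.51). Of 19 endothelial genes, 0 were called higher and 2 lower, among them the adhesion molecule Vcam1 (log2 fold change -0.87 ± 0.18, adjusted p = 0.000359). Clec4g, a sinusoidal lectin, was not called (-0.03).

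Clock genes differed between the groups. Of 19 genes of the circadian clock and its outputs, 4 were called higher and 5 lower. Clock, a member of the activating pair of the clock, had 36.2 to 52.3 CPM (median 42.3) under the standard diet and 14.9 to 22.5 CPM (median 17.9) under the HFD, and Arntl, its partner BMAL1, had 2.34 to 6.57 CPM (median 3.69) under the standard diet and 0.633 to 2.15 CPM (median 1.18) under the HFD. Neither overlapped (log2 fold change 1.27 ± 0.08, adjusted p = 3.09e-10 and log2 fold change 1.73 ± 0.23, adjusted p = 3.32e-06). Nfil3, an output repressor, was higher (log2 fold change 0.62 ± 0.14, adjusted p = 0.000902). Its call ended in 3 of the 19 fits that left out 1 mouse (0.54 to 0.68 over all 19). Nr1d1, the repressor REV-ERBα, was higher (log2 fold change 0.63 ± 0.22, adjusted p = 0.0207) but not called without HFD mice 7 and 8 (0.47). Per3, a repressor of the pair, had 18.7 to 38.7 CPM (median 32.3) under the standard diet and 38.5 to 56.9 CPM (median 46) under the HFD, with the groups overlapping only between 38.5 and 38.7 CPM (log2 fold change -0.65 ± 0.11, adjusted p = 7.47e-05), and its fold was under the limit without standard diet mouse 1 (-0.58). Per2 (log2 fold change -0.64 ± 0.12, adjusted p = 0.000144), Ciart (log2 fold change -0.82 ± 0.25, adjusted p = 0.00896) and the clock output Usp2 (log2 fold change -1.47 ± 0.25, adjusted p = 4.96e-05) were lower. With the first component of the clock genes as a covariate, 45 of the 155 called genes named here were no longer called. That component is made of these same clock genes, and the share of the diet differences that goes with the hour of collection was not tested.

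Of 18 glucocorticoid targets, 1 was called higher and 3 lower, and 3 and 1 without HFD mice 7 and 8. Zbtb16, a factor that glucocorticoids induce, had 7.45 to 52.7 CPM (median 15.3) under the standard diet and 1.21 to 10.3 CPM (median 4.69) under the HFD. The standard diet mice spread widely (log2 fold change 2.38 ± 0.42, adjusted p = 9.49e-05). Sgk1, a kinase, was lower (log2 fold change -0.62 ± 0.13, adjusted p = 0.000469), not called without the 2 mice (-0.48). Of 22 immediate early and heat shock genes, 0 were called higher and 4 lower, among them Klf4 (log2 fold change -0.85 ± 0.16, adjusted p = 0.000149). Of 36 cell cycle genes, 0 were called higher and 3 lower, such as Ube2c, which acts in mitotic exit (log2 fold change -0.84 ± 0.20, adjusted p = 0.00169). Mki67, the antigen of dividing cells, had 6.34 to 11.1 CPM (median 8.12) under the standard diet and 4.51 to 12.8 CPM (median 7.95) under the HFD. The ranges nearly coincided (log2 fold change 0.15 ± 0.17, adjusted p = 0.474). Of 20 p53 targets, 2 were called higher and 1 lower, with Eda2r, a receptor of the tumour necrosis factor family, at log2 fold change 1.22 ± 0.19, adjusted p = 1.75e-05 and no overlap. Of 18 iron genes, 0 were called higher and 1 lower. In the fit without HFD mice 7 and 8, the higher and lower calls were 0 and 2 for the immediate early and heat shock genes, 1 and 1 for the cell cycle genes, 3 and 0 for the p53 targets and 1 and 0 for the iron genes.

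Of the genes called higher, Lmbrd2, a membrane protein, had the smallest p, with 12.2 to 19.1 CPM (median 15.4) under the standard diet and 0.707 to 1.85 CPM (median 1.25) under the HFD. The gap between the groups was wider than the range within either (log2 fold change 3.55 ± 0.15, adjusted p = 7.9e-13). Cep85l, a centrosomal protein (log2 fold change 3.69 ± 0.18, adjusted p = 5.31e-12), Zbed6, a transcription factor encoded in an intron of another gene (log2 fold change 5.01 ± 0.29, adjusted p = 4.44e-11), and Kif13b, a kinesin (log2 fold change 3.16 ± 0.18, adjusted p = 6.27e-11), were also far apart. Ern1, the ER stress sensor IRE1α, had 24.3 to 46.5 CPM (median 29.8) under the standard diet and 2.79 to 8.75 CPM (median 5.34) under the HFD (log2 fold change 2.59 ± 0.15, adjusted p = 7.62e-11). Mob1b of the Hippo pathway (log2 fold change 2.03 ± 0.11, adjusted p = 4.27e-11), the nuclear importer Tnpo1 (log2 fold change 1.27 ± 0.07, adjusted p = 3.64e-11), the cholesterol exporter Abca1 (log2 fold change 0.92 ± 0.06, adjusted p = 1.18e-10) and the cytochrome Cyp3a59 (log2 fold change 1.72 ± 0.11, adjusted p = 2.02e-10) were also among the 12 higher genes of smallest p. None of these 9 overlapped between the groups. Over all tested genes, 1063 higher (7.87%) and 274 lower (2.03%) did not overlap.

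Among the lower genes of smallest p, Ucp2, a mitochondrial carrier, had 41.7 to 58.7 CPM (median 49.5) under the standard diet and 84.2 to 138 CPM (median 104) under the HFD. The groups were apart (log2 fold change -1.10 ± 0.09, adjusted p = 4.21e-09). Wnt5b, a signalling ligand (log2 fold change -1.46 ± 0.11, adjusted p = 1.7e-09), Eng, a TGF-beta coreceptor of endothelium (log2 fold change -0.61 ± 0.05, adjusted p = 5.35e-09), Tinagl1, a matrix protein (log2 fold change -0.76 ± 0.06, adjusted p = 5.61e-09), Ankrd12, a nuclear ankyrin protein (log2 fold change -1.37 ± 0.14, adjusted p = 7.3e-08), and the ribosomal protein gene Rps28 (log2 fold change -0.81 ± 0.08, adjusted p = 5.91e-08) were likewise lower without overlap.

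Gene length moved with diet. The median log2 fold change ran from -0.27 in the 10% of genes with the shortest exons, 45 to 1183 bases, to 0.31 in the 10% with the longest, 6364 to 83437 bases. Within single libraries, the rank correlation of a gene's log ratio to the mean of all libraries with its length was 0.194 to 0.397 under the standard diet and -0.525 to 0.228 under the HFD, a description across genes. The same with GC content was -0.203 to -0.042 and 0.001 to 0.171. Genes called higher had a median length of 4485 bases, and genes called lower 2202.5 bases, against 2896 bases over all. With a length offset, 670 were called higher (4.96%) and 1007 lower (7.46%), of which 589 and 856 had been called without it. With a length and GC offset, 669 (4.95%) and 989 (7.32%) were called. The 73 cytosolic ribosomal protein genes, which are short, had a median of -0.29 and -0.04 with the offset, and 77 respiratory chain genes -0.22 and 0.04. Of the named called genes, 18 lost their call with the offset, among them Rps28, Apob, Hilpda, Fabp4, Akr1d1, Sult1a1, Stat5b, Chdh, Prodh, Dcn, Cd68, C1qa, Trem2, Plac8, Ccl2, Ifit3 and Hnf4a. The MHC class II list had 9 lower calls with it and the cholangiocyte list 4. Higher and lower calls became 9 and 1 for the glutathione transferases, UDP-glucuronosyltransferases and sulfotransferases (median 0.32) and 4 and 4 for the acute phase proteins. They became 0 and 3 for basement membrane, 1 and 0 for Kupffer cells, 1 and 6 for fetal and injury-induced genes and 2 and 2 for glucocorticoid targets. For B and plasma cells they became 1 and 3, for lipid droplet genes 0 and 2 and for interferon response genes 0 and 3. The part of library preparation or RNA quality in this trend was not tested.

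**Figure D4:**
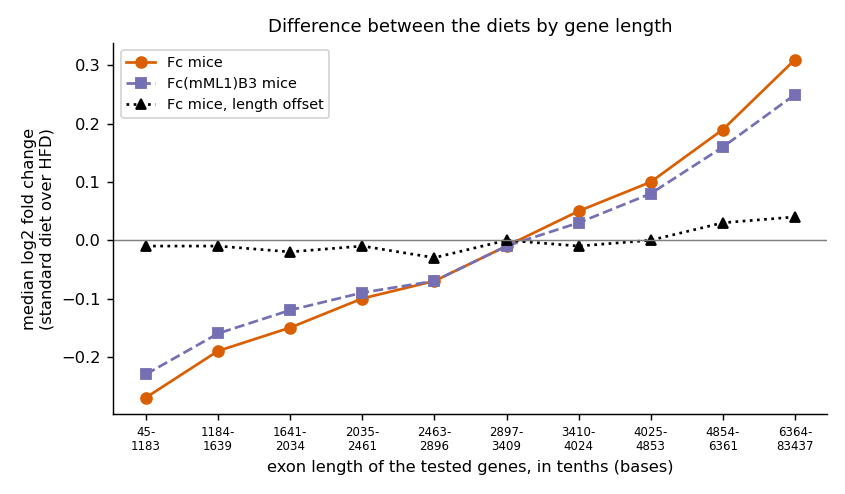
Median log2 fold change of the standard diet over the HFD in 10 bins of the tested genes by exon length in bases, for Fc mice (orange), for Fc(mML1)B3 mice (purple, dashed) and for Fc mice with a length offset in each library (black, dotted). In Fc mice the medians climb from -0.27 to 0.31, and with the offset they lie near 0.

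The same diets were compared in the Fc(mML1)B3 mice, which shared the feeding and the experiments but no libraries with the Fc mice. Of 13627 genes tested there, 747 were called higher under the standard diet (5.48%) and 852 lower (6.25%). Of 13424 genes tested in both comparisons, 909 were called higher in the Fc mice and 737 in the Fc(mML1)B3 mice, and 1206 and 830 were called lower. Both comparisons called 406 genes higher, 44.7% of those of the Fc mice and 55.1% of those of the Fc(mML1)B3 mice, and 424 lower, 35.2% and 51.1%. Genes called in opposite directions numbered 32 and 15. A test of the difference between the contrasts, an interaction term over all 36 libraries, passed an adjusted p below 0.05 for 1278 of 14105 genes (9.06%). The signed difference, the log2 fold change in Fc mice minus that in Fc(mML1)B3 mice, was positive for 621 of them (4.4%) and negative for 657 (4.66%). The sign does not tell which contrast was the larger in size. The doses of Fc(mML1)B3 followed the schedule of each experiment, so schedule and diet cannot be told apart here either.

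In the Fc(mML1)B3 mice, 10 interstitial matrix, 7 elastic fibre and 1 basement membrane genes were called lower, where the Fc mice had 11, 10 and 1, and how many of them are shared was not counted. Col1a1 had a log2 fold change of -1.18 in the Fc mice and -1.10 in the Fc(mML1)B3 mice (interaction adjusted p = 0.901). The xenobiotic genes Cyp3a11 (1.78 and 1.58) and Ces2a (1.57 and 1.52) and the acute phase gene Saa2 (-3.33 and -3.15) had interaction adjusted p of 0.718, 0.94 and 0.894. Cholesterol synthesis genes had 14 lower calls in the Fc mice. In Fc(mML1)B3 mice they had 2 higher calls and 0 lower calls and a median of -0.06. The difference of the contrasts passed the threshold for 8 of the 25 members, against 9.06% of all genes. It did so for Msmo1 (-1.15 and 0.28, interaction adjusted p = 0.000827) and not for Fdps (-1.33 and -0.57, 0.13). Of 15 male-biased genes, 3 were called higher and 1 lower in Fc(mML1)B3 mice, with a median of 0.27. Of 10 female-biased genes tested there, 2 were called higher and 1 lower, with a median of 0.09. The interaction test was passed by 1 of 15 male-biased and 3 of 14 female-biased genes. Lower calls of T and NK cell genes were 10 in the Fc mice and 2 in the Fc(mML1)B3 mice, and 0 of 18 genes of the list passed the interaction test (adjusted p = 0.613 for Cd3e). Other immune lists varied. The test was passed by 0 of 17 MHC class II genes, 5 of 10 B and plasma cell genes and 9 of 28 interferon genes. The last 2 lists had 0 lower calls in Fc(mML1)B3 mice, with medians of 0.40 and 0.15 there against -0.62 and -0.31 in the Fc mice.

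The clock list held 15 of its genes past the interaction test. Arntl was at 0.92 to 3.38 CPM (median 1.5) under the standard diet and 6.59 to 28.6 CPM (median 19.7) under the HFD in the Fc(mML1)B3 mice, the reverse of the Fc mice (interaction adjusted p = 1.48e-10). Per3 was reversed as well (-0.65 in Fc mice and 1.30 in Fc(mML1)B3 mice, 4.12e-09). Elovl3, Chka, Ppp1r3c, Creld2 and Manf were called higher in the Fc mice and lower in the Fc(mML1)B3 mice. Their log2 fold changes in the latter were -2.71, -1.72, -1.64, -0.84 and -0.89, with interaction adjusted p of 1.03e-08, 3.21e-08, 1.74e-07, 2.64e-05 and 7.36e-06. Cyp7a1, called lower in the Fc mice, was called higher in Fc(mML1)B3 mice (0.92, 4.27e-05). Of the ER stress list, 7 genes were called lower and 0 were called higher in Fc(mML1)B3 mice. Hspa5 had 0.91 and -0.51, and the interaction adjusted p was 7.81e-05. The part of the hour of collection in these genes was not tested.

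**Figure D5:**
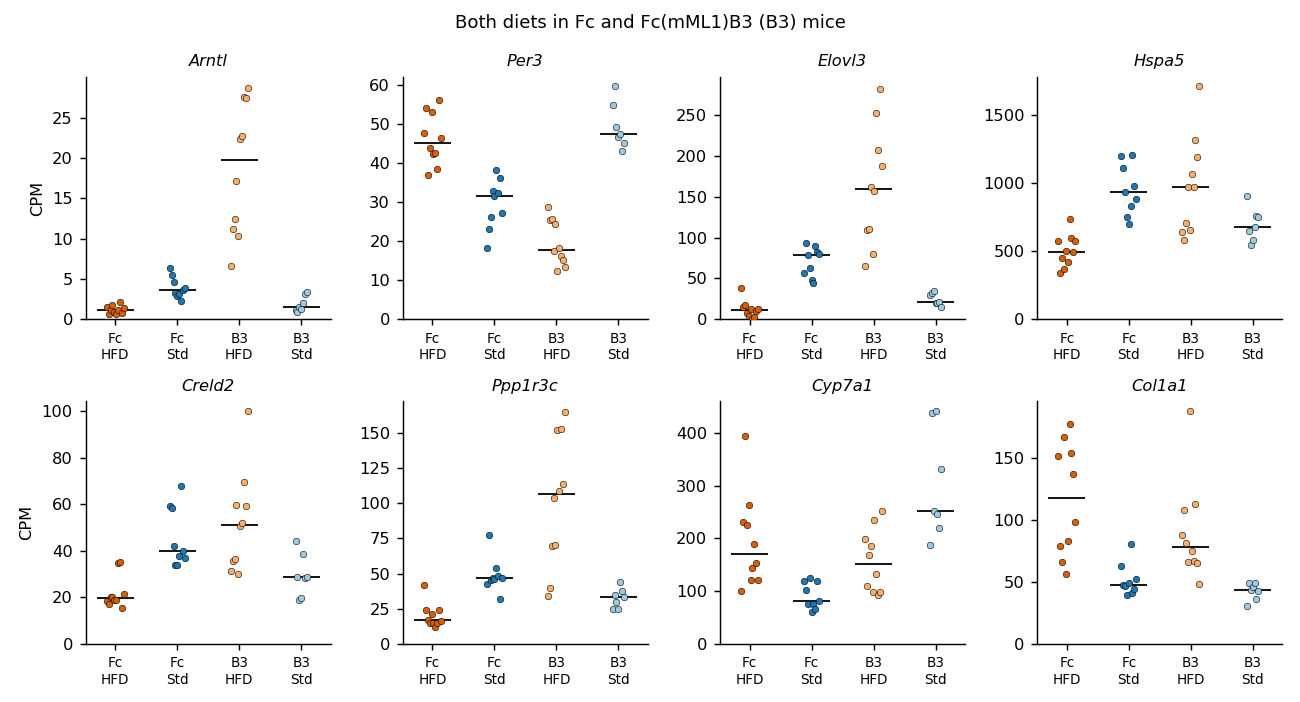
CPM of 8 genes in each mouse of both proteins (Fc, Fc(mML1)B3) and both diets (HFD, standard), scaled over all 36 libraries, each panel with its own axis from 0; bars are group medians. Arntl is lowest in Fc HFD and highest in Fc(mML1)B3 HFD mice, Per3 is lowest in Fc(mML1)B3 HFD mice and higher in the Fc HFD and Fc(mML1)B3 standard diet mice, and Col1a1 is lower under the standard diet in both pairs.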

How the data were processed

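Liver RNA was sequenced from 36 mice, of which the 19 Fc libraries gave the main comparison and the 17 Fc(mML1)B3 libraries the same contrast beside it. The deposited values are read counts per gene that the authors made. Per the labels, the processing notes of the submitters name fastp, Bowtie2 2.4.5, STAR 2.7.10a and Subread 2.0.3 with the mouse build mm10. Per the file headers, featureCounts ran without strand and counted both ends of a pair as reads, so reads of a gene and an overlapping antisense gene cannot be told apart, and 67.95% to 74.13% of counts of 1 to 20 were even. Intervals that would treat reads as independent molecules are not given. At the totals found, a gene near 1 CPM rests on about 20 reads.

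The groups came from the sample titles and treatments. Standard diet was tested against HFD by edgeR's two-sided quasi-likelihood test (edgeR 4.0.16, R 4.3.3), with TMM scaling, filterByExpr and Benjamini-Hochberg adjustment over 13506 genes, in the 9 and 10 Fc libraries without covariates. Calls needed an adjusted p below 0.05 together with a 1.5-fold change. The SE was the absolute log2 fold change divided by the root of the F statistic. The contrast in Fc(mML1)B3 mice and the interaction over all 36 libraries used the same test. Of 81 library pairs within a group, none agreed within sampling noise (chi-square per degree of freedom of at least 6.3). Same-numbered mice of the 2 diets did not deviate together, so no block was used. In simulated counts for the Fc comparison with 13404 genes, 92.93% of 99 genes changed 2-fold and 100% of 95 changed 4-fold were called, and 0.02% of unchanged genes. The simulated counts held no length trend and no mice that stood apart, so these rates need not hold for the real libraries.

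Named genes are the 12 called genes of smallest p and the 8 largest changes at a mean of 5 CPM or more in each direction, in each list up to 5 called genes per direction and up to 3 uncalled genes of the highest level, genes the study stained or measured by qRT-PCR, and called genes whose promoters were compared. Of these, those shown were picked to fit the text. The members of the lists and the comparison were chosen with earlier results of these data known. Promoter letters came from RefSeq (GRCm38.p6), with a window for 10288 of the 13506 genes, matched by symbol.

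Alternatives were DESeq2 1.42.0, limma-voom of limma 3.58.1 with quality weights, other scaling, other filters and thresholds, a test of the fold limit, thinning to equal depth, all 36 libraries in 1 fit, a clock covariate, a replicate block, the low and the high series of library numbers in the file names, a length offset and each library left out. A length and GC offset, the fit without HFD mice 7 and 8 and the length offset in Fc(mML1)B3 mice were added after seeing the data.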

Additional observations from a re-analysis of the deposited data

Results flagged for a closer look

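In 41 of 366 groups of 9 or 10 mice examined for the named genes, the highest or the lowest mouse lay further from the others than Dixon's limit allows. The limit assumes normal values, which CPM need not be, and many genes share the same extreme mouse. The count of 41 is therefore not set against a rate by chance. HFD mouse 7 was the extreme mouse in 11 of them, with 148 CPM of G0s2, 63.5 of Fabp4, 4630 of Apoa4, 395 of Sult1a1, 119 of Cyp17a1, 260 of Cyp2a4, 126 of Manf, 227 of C1qa, 848 of Lcn2, 50.6 of Plac8 and 130 of Tff3. HFD mouse 8 was extreme for Sgk1 (86.6 CPM). Standard diet mouse 5 was extreme in 6 inflammation genes, with 277 CPM of Lcn2, 27.2 of Cxcl1, 563 of Saa1, 358 of Saa2, 9910 of Fga and 176 of Lbp. Standard diet mouse 6 was highest in 7 genes, 6 of them of matrix or mesenchyme, with 252 CPM of Bgn, 94.1 of Col1a2, 491 of Dcn, 5.22 of Mmp23, 78.1 of Timp3, 118 of Vim and 0.996 of Mogat2. None of the named calls was lost without standard diet mouse 6.

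HFD mouse 1 was lowest in Cep85l (0.301 CPM) and highest in Elovl3 (38.6 CPM), Hsd3b5 (39.1 CPM) and Ppp1r3c (42.3 CPM). HFD mouse 9 was highest in Tnpo1 (27.1 CPM) and Hgf (15.1 CPM). Standard diet mouse 4 was highest in Cyp2b9 (25.6 CPM), Cd163 (5.4 CPM) and H19 (4.51 CPM). Standard diet mouse 1 was highest in Ern1 (46.5 CPM), Abca1 (281 CPM) and Emilin1 (54.8 CPM), and standard diet mouse 2 in Selenbp2 (500 CPM) and Ppp1r3c (79.3 CPM). Standard diet mouse 7 was lowest in Mvk (13.2 CPM), and standard diet mouse 8 was highest in Acot3 (10.7 CPM).

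The diet contrast differed between Fc and Fc(mML1)B3 mice for 1278 genes by the interaction test of edgeR, 39 of them among the named genes. The values below are the log2 fold change in Fc mice minus that in Fc(mML1)B3 mice. Among the clock genes and their outputs the differences were 5.02 for Arntl, 1.69 for Clock, 2.15 for Nfil3, -2.01 for Usp2, -0.78 for Per2, -1.96 for Per3, -1.30 for Nr1d1 and -3.03 for Ciart. The glucocorticoid target Zbtb16 had 2.32. In lipid and bile acid genes they were -1.44 for Msmo1, -0.64 for Sc5d, -1.94 for Mogat2, -1.30 for Apoa4, 1.07 for Acox2 and -2.03 for Cyp7a1. In detoxification they were -1.34 for Por, -0.75 for Gstt2 and 0.98 for Gclc.

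In sex-biased and growth hormone genes they were 5.25 for Elovl3, -3.55 for Acot3, -2.14 for Cyp17a1, -2.84 for Cyp2a4 and 0.70 for Stat5b. Leaving out HFD mice 7 and 8 moved the contrast in Fc mice from -2.16 to -1.03 for Cyp17a1, from -1.27 to 0.32 for Cyp2a4 and from -5.17 to -1.17 for H19, and the interaction without them was not fitted. Chaperones of the ER had 1.41 for Hspa5, 0.52 for Hsp90b1, 0.90 for Pdia4, 1.88 for Creld2 and 1.63 for Manf. Choline and glycogen genes had 0.52 for Slc44a1, 2.29 for Chka and 2.90 for Ppp1r3c. The others were -0.79 for Wnt5b, 1.5 for Spon2, -1.83 for Mzb1, 0.62 for Fga, -0.91 for Psmb9, -0.69 for Ifit3, -5.05 for H19 and 0.44 for Hnf4a.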

How the results depend on the processing

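Of the 155 called genes named here, 51 were tested and called under all 36 alternatives, 99 lost their call under at least 1, and 5 were called wherever tested but were removed by a stricter filter or by thinning under at least 1. Of the 99, 16 lost it when at least 1 library was left out, each in 1 to 10 of the 19 fits. Requiring the change itself to exceed 1.5-fold lost 87 of the calls. Where neither fit called a gene, its signs were compared only if both values lay more than 1 SE from 0. The sign turned for Cyp2a4 without HFD mice 7 and 8 (0.32), for Igf1 with a length and GC offset (-0.12), and for Nfil3 (-0.07) and Ciart (0.56) with the clock covariate, which is built from such genes.

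The 914 higher and 1218 lower calls became 313 and 147 when the test was of the 1.5-fold limit itself, and 295 (2.18%) and 301 (2.23%) when 2-fold changes at an adjusted p below 0.1 were counted. Lower calls fell to 785 with only the 4 standard diet libraries of the high number series, which have fewer mice, and to 603 with a filter at a mean of 5 CPM, which tests fewer genes. Genes at an adjusted p below 0.05 numbered 1817 higher and 1181 lower with the clock covariate, 1619 lower with the high series and 2260 lower with the low series. Lists with more lower calls fell from 32 to 20 under the test of the fold limit. Scaling by totals gave 682 higher and 1571 lower calls, and upper quartile scaling 672 and 1641, with medians of -0.12 and -0.13 over all genes. DESeq2 gave 909 and 1271.

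Leaving out each library in turn gave 880 to 1008 higher and 1040 to 1342 lower calls, 3059 to 3342 and 2928 to 3409 genes at an adjusted p below 0.05, 29 to 34 lists with more lower calls and 12 to 17 with more higher calls. With the mouse number as a replicate block, 956 genes were called higher and 1085 lower, and 3050 and 2921 passed the adjusted p alone. The correlation of deviations over the 9 pairs of same-numbered mice was -0.285 to 0.109, with 1 pair above 0.1, and 0 mice correlated best with their own number, so the mice share only a number. The block lost 11 of the 155 named calls. The cause of these shifts was not tested where the construction does not give it. In the Fc(mML1)B3 mice, DESeq2 gave 758 and 889 calls and a length offset 605 and 757, and the interaction by DESeq2 gave 1423 genes.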
